A study of Mus musculus with 12 samples.

Results

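The transcripts described here encode 9 transport proteins of the hepatocyte surface, followed by gene symbol through 13 array probes among the 19057 gene symbols on the array. RNA of whole livers from mice aged 2 months was hybridised to 12 MouseWG-6 v2.0 arrays, 1 liver per array. The 4 Atg7 KO livers carried floxed Atg7 alleles and Alb-Cre (Alb-Cre:Atg7 FF), in which the albumin promoter drives the Cre recombinase in hepatocytes. The 4 Olig1-Cre livers (Olig1-Cre:Atg7 FF) carried the same floxed alleles with Cre under the control of Olig1, which is active in oligodendrocyte precursors. The 4 control livers (Atg7 FF) carried the floxed alleles without Cre, and the 2 lines (Alb-Cre and Olig1-Cre) supplied 2 of them each. The labels call both Cre groups conditional Atg7 knockouts, although the study describes only the Alb-Cre mice. The Atg7 KO mice were 4 males, while the Olig1-Cre group (male: replicate 2) and the control group (male: replicate 1) had 1 male and 3 females each. Replicate numbers only name livers. On both chips every group had 2 arrays, always at the same places, so that place on the chip and group cannot be told apart.

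Bile acids and other organic anions enter hepatocytes from the blood across the sinusoidal membrane and leave them into bile across the canalicular membrane. Slc10a1 (Ntcp) takes up bile acids together with sodium, and the Slco proteins (Oatp1a1, Oatp1a4 and Oatp1b2) take up organic anions without it. At the canaliculus, Abcb11 (the bile salt export pump) exports bile salts, Abcb4 moves phosphatidylcholine into bile and Abcc2 (Mrp2) exports glutathione and glucuronide conjugates, bilirubin glucuronides among them. Abcc3 (Mrp3) and Abcc4 (Mrp4) lie in the basolateral membrane and pump conjugates and bile acids back into the blood.

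On GRCm38.p6, Slc10a1 lies at chr12:80953185-80968705, Abcb11 at chr2:69238282-69342616, Abcb4 at chr5:8893614-8959226, Abcc2 at chr19:43782308-43838332, Abcc3 at chr11:94343295-94393017 and Abcc4 at chr14:118482692-118707856. The uptake genes Slco1b2 (chr6:141629452-141686646), Slco1a4 (chr6:141805438-141856284) and Slco1a1 (chr6:141907281-141946962) lie in a cluster, 26.8 to 27.0 Mb from the end of Atg7 on the same chromosome. RefSeq promoter windows (250 bases before to 50 after a start site) were at hand for 8 of the 9 members, 10 windows in all. Those of Abcc2 and Abcc4 are shown because they are the windows of members that hold the antioxidant response core TGACNNNGC, which was searched on both strands and is capitalised here. Each is written 5′ to 3′ along its gene.
Abcc2, chr19:43782058-43782357, plus strand: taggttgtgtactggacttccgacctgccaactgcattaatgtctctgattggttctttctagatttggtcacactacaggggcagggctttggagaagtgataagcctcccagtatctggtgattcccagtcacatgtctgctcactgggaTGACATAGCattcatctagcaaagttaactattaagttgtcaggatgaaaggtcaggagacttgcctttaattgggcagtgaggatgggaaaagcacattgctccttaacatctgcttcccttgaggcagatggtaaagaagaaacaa
Abcc4, downstream start site, chr14:118676882-118677181, minus strand: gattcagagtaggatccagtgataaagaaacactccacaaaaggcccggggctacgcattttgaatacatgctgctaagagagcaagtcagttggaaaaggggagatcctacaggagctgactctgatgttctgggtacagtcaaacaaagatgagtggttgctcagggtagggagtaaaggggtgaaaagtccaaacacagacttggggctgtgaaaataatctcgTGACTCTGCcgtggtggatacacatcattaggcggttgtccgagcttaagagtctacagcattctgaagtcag
Abcc4, upstream start site, chr14:118706170-118706469, minus strand: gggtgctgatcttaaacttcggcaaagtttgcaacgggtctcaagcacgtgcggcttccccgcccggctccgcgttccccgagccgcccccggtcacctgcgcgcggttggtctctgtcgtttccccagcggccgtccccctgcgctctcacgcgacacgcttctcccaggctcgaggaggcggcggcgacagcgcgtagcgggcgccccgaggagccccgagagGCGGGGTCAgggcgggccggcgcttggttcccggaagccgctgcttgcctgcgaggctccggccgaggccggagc
With the start site as base 0, the core stood at bases -98 to -90 of Abcc2 and at -23 to -15 of the downstream Abcc4 window, and at -25 to -17 of the upstream Abcc4 window it stood on the opposite strand. The core was present in 3 of the 10 member windows, and in 12.4% of all 32851 promoter windows. The STAT core TTCNNNGAA was in 3 of the 10 windows (the upstream Slc10a1 window, Slco1b2 and the upstream Abcc4 window) and in 8.3% of all windows. The nuclear receptor hexamer AGGTCA was in 5 of the 10 (the downstream Slc10a1 window, Slco1a1, Slco1b2, Abcb11 and Abcc2) and in 16.3% of all. The HNF1 motif GTTAAT was in 1, that of Slco1b2, and in 7.1% of all. None of these matches overlapped another in the windows of the members.

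A probe counted as detected when its detection p-value, which sets it against the negative control beads of its array, was under 0.05. Detection on 4 or more of the 12 arrays was required of a probe, which left 10 of the 13 member probes and 8 of the 9 members among 10711 genes. Slco1a1 was detected on 0 of 12 arrays, with log2 signals of 4.22 to 4.33 in Atg7 KO livers, 4.23 to 4.35 in Olig1-Cre livers and 4.20 to 4.62 in control livers, so no comparison is given for it. Levels below are normalized log2 signals, on which a difference of 1 is 2-fold. A gene was called higher or lower at a Benjamini-Hochberg adjusted p under 0.05 from limma over all 10711 genes.

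Hepatocyte transcripts were present in all groups. The share of probes detected was 39.8 to 43.9% in Atg7 KO livers, 39.1 to 41.9% in Olig1-Cre livers and 34.2 to 37.8% in controls, and control replicate 1 was the lowest. Of 12 hepatocyte markers, 10 passed the filter, while the probes of Tat and Fgb were detected on 0 arrays. Alb, 1 of those kept, has a single probe, which was detected on 10 of the 12 arrays. The single Atg7 probe was detected on 2 of 12 arrays and does not check the deletion. Y-linked transcripts fitted the sex on the label for 12 of 12 arrays. The oligodendrocyte markers Olig2 and Mog were detected on 0 arrays, whereas Olig1 was detected on 12. In Atg7 KO livers Mbp, the other marker measured, was higher than in controls (1.33, adjusted p = 0.000128). Olig1 was not called there (-0.78, adjusted p = 0.193). In Olig1-Cre livers Mbp was higher as well (0.86, adjusted p = 0.0207), and Olig1 was at -0.037 (adjusted p = 0.943). Thus 1 of the 2 markers measured was called higher in each Cre group, against 19.5% and 12.8% of all genes.

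In Atg7 KO livers the uptake carriers measured among the members and the bile salt export pump were lower than in control livers, and both basolateral pumps were higher. Slc10a1, Slco1a4, Slco1b2 and Abcb11 fell, Abcc2, Abcc3 and Abcc4 rose, and Abcb4 was not called. Thus 3 of the 8 measured members were called higher and 4 lower, against 19.5% and 15.3% of all genes. With each array scaled to 1 median in place of quantiles, the median of all genes moved to 0.59 on the log2 scale, and 4854 genes were called higher and 163 lower, against 2088 and 1644 with quantiles. Under that scaling no member changed direction, and 1 member was called lower in place of 4. The ranges of the 2 groups were apart for 7 of the 8 members, against 35.0% of all genes.

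**Figure D1:**
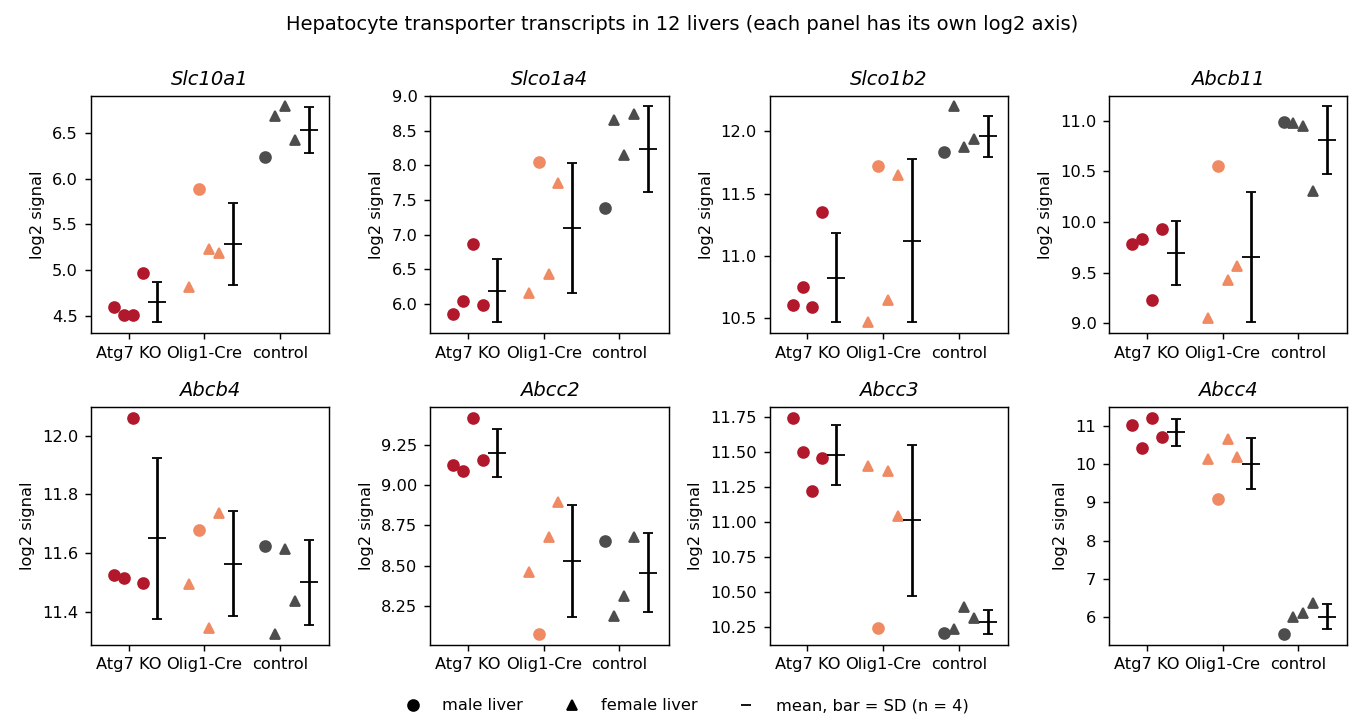
Normalized log2 signal of 8 transporters in each of the 12 livers, with Atg7 KO, Olig1-Cre and control livers from left to right in each panel, circles for males and triangles for females; the bar is the mean with its SD (n = 4). Abcc4 lay between 10.41 and 11.21 in Atg7 KO livers and between 5.57 and 6.36 in controls, and the ranges of these 2 groups met only for Abcb4.

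Slc10a1, the sodium-dependent bile acid carrier, had log2 signals of 4.60, 4.51, 4.52 and 4.97 in Atg7 KO livers, against 6.23, 6.68, 6.79 and 6.42 in control livers. Every Atg7 KO liver was below every control. The difference was -1.88 (SE 0.16, adjusted p = 2.2e-05 from limma), which is 3.68-fold lower. It was -0.80 (1.74-fold lower) with the cubic spline that the methods name and -0.74 (1.67-fold lower) with quantiles without background correction, called in both, so the size of the change depended on the background correction. The probe was dim, with raw signals of 96.8 to 113.8 in Atg7 KO livers and 93.8 to 155.7 in controls, and it was detected on 3 of 4 Atg7 KO arrays and on 4 of 4 control arrays.

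Slco1a4, an organic anion carrier, gave 5.86, 6.04, 6.86 and 5.98 in Atg7 KO livers, against 7.38, 8.65, 8.15 and 8.74 in controls. The groups did not overlap, and the male control was the lowest of its group. The difference was -2.04 (SE 0.31, adjusted p = 0.000684), and against the male control alone it was -1.20 (adjusted p = 0.0854), where that 1 liver is assumed to vary as the others do. Over all 8 livers it was -1.36 with the cubic spline, -1.33 with quantiles without background correction and -1.05 without the filter on dim probes, called each time. Slco1b2, which takes up conjugated bilirubin and many drugs, gave 10.60, 10.75, 10.59 and 11.36 in Atg7 KO livers, against 11.83, 12.20, 11.88 and 11.94 in controls. Its difference was -1.14 (SE 0.18, adjusted p = 0.000968). Its pair of kept probes both fell, by 1.54 and by 0.73 on the log2 scale, so the size of the change depended on the probe.

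Abcb11 gave 9.78, 9.83, 9.23 and 9.93 in Atg7 KO livers, against 10.99, 10.98, 10.95 and 10.30 in controls. Control replicate 4 was the lowest control and still above every Atg7 KO liver. The difference was -1.11 (SE 0.20, adjusted p = 0.00203). With arrays scaled to 1 median, the calls of Abcb11 (-0.52, adjusted p = 0.126), Slco1a4 (-1.22, adjusted p = 0.0638) and Slco1b2 (-0.67, adjusted p = 0.0975) were lost, with the median of all genes at 0.59.

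Abcb4, the phospholipid translocator of the same membrane, gave 11.53, 11.52, 12.06 and 11.50 in Atg7 KO livers and 11.62, 11.33, 11.61 and 11.44 in controls. These values overlapped, and the difference of 0.15 (95% interval -0.20 to 0.50, adjusted p = 0.500) was within the spread of the livers. Abcc2, the conjugate pump, gave 9.13, 9.09, 9.42 and 9.16 in Atg7 KO livers, against 8.65, 8.18, 8.31 and 8.68 in controls. All Atg7 KO livers were above all controls, by 0.74 on average (SE 0.15, adjusted p = 0.00362). Both probes were higher, by 0.91 and 0.58, and with sex as a covariate the difference was 0.55 (adjusted p = 0.120) and no longer called. With 2 livers against 2, it was not called within chip 1 (0.69, adjusted p = 0.0869) or chip 2 (0.80, adjusted p = 0.0557), and within chip 2 the calls of Slco1b2 (-0.93, adjusted p = 0.0700) and Abcb11 (-1.05, adjusted p = 0.0746) were lost as well.

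Abcc3 gave 11.75, 11.50, 11.22 and 11.46 in Atg7 KO livers, against 10.21, 10.24, 10.39 and 10.31 in controls. The controls differed by little, with an SD of 0.08, and the Atg7 KO livers were all above them. The difference was 1.19 (SE 0.14, adjusted p = 0.000115), or 2.29-fold. Abcc4 gave 11.01, 10.41, 11.21 and 10.70 in Atg7 KO livers, against 5.57, 6.01, 6.10 and 6.36 in controls. Its raw signal was 1432 to 3131 in Atg7 KO livers and 86.4 to 135.3 in controls. The difference of 4.82 (SE 0.21, adjusted p = 1.85e-07), or 28.3-fold, ranked 11 from the highest among the 10711 genes. It was 3.77 (13.6-fold) with the cubic spline and 3.75 (13.5-fold) with quantiles without background correction, called in both. The control signals were near background, so the size of the change depended on the background correction. Of the 3 canalicular and 2 basolateral pumps, 1 therefore fell, 3 rose and 1 was not called.

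**Figure D2:**
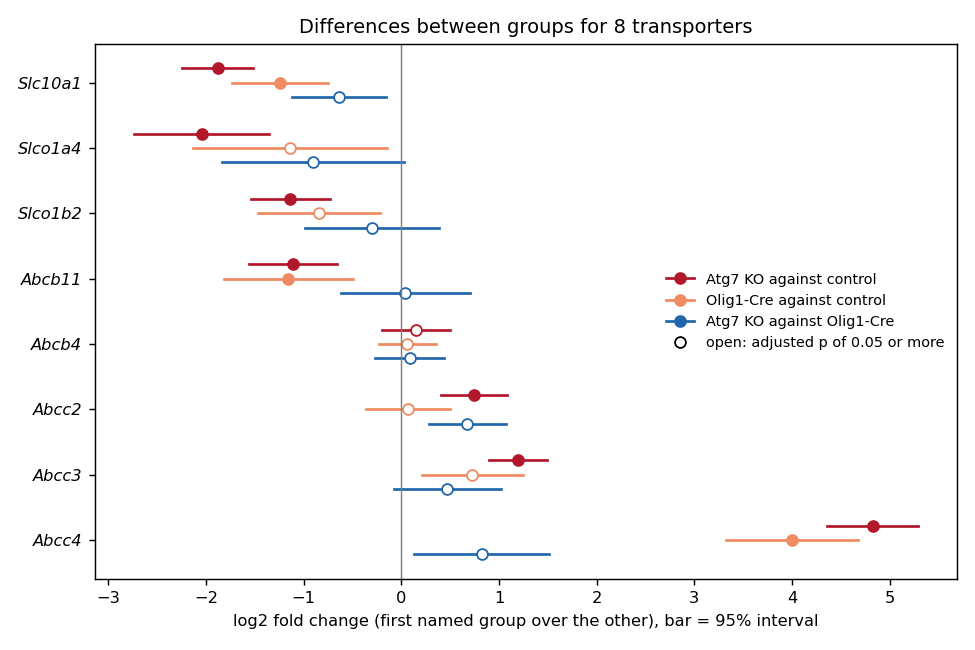
Log2 fold change of 8 transporters (first named group over the other) with its 95% interval, for Atg7 KO against control, Olig1-Cre against control and Atg7 KO against Olig1-Cre; filled points have an adjusted p under 0.05. The interval of Abcc4 ran from 4.36 to 5.29 in Atg7 KO and from 3.32 to 4.68 in Olig1-Cre livers against controls, and no point of the direct comparison of both Cre groups is filled.

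In Olig1-Cre livers Abcc4 was again far above the same controls, and Slc10a1 and Abcb11 were lower. Of the 8 members, 1 was called higher and 2 lower, against 12.8% and 8.47% of all genes. The ranges were apart for 3 members (Slc10a1, Slco1b2 and Abcc4), against 23.9% of all genes. Both comparisons share the 4 control livers. With arrays scaled to 1 median, the median of all genes moved to 0.40, with 1734 genes called higher and 38 lower against 1366 and 907, and neither Slc10a1 (-0.72, adjusted p = 0.115) nor Abcb11 (-0.72, adjusted p = 0.121) was called. Both also lost the call within chip 1, at -1.10 and -1.18, with 2 livers against 2.

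Abcc4 gave 10.12, 9.08, 10.67 and 10.18 in Olig1-Cre livers, against 5.57 to 6.36 in controls, and the male, replicate 2, was the lowest of the Olig1-Cre group. The difference was 4.0 (SE 0.30, adjusted p = 7.93e-05), or 16-fold, and ranked 16 from the highest of all genes. It was 3.0 (8.02-fold) with the cubic spline and 2.98 (7.87-fold) with quantiles without background correction, called in both. Slc10a1 gave 4.82, 5.89, 5.23 and 5.19, against 6.23 to 6.79 in controls, a difference of -1.25 (SE 0.22, adjusted p = 0.00534). With the cubic spline it was -0.58 (adjusted p = 0.00923) and with quantiles without background correction -0.54 (adjusted p = 0.00976). Abcb11 gave 9.05, 10.56, 9.42 and 9.56, against 10.30 to 10.99 in controls, and its male liver lay within the control range. The difference of -1.16 (SE 0.30, adjusted p = 0.0235) lost its call without Olig1-Cre replicate 1, 3 or 4, and likewise without control replicate 1, 2 or 3, with adjusted p-values of 0.0516 to 0.0701, and without the male Olig1-Cre liver it was -1.46 (adjusted p = 0.000972).

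The other members were not called. Abcc3 gave 11.40, 10.24, 11.36 and 11.04 in Olig1-Cre livers, so that the 3 females were above every control and the male lay within the control range. Its difference was 0.73 (adjusted p = 0.0504), and 0.98 without the male (adjusted p = 0.000848). Slco1a4 gave 6.15, 8.05, 6.43 and 7.74, with a difference of -1.14 (adjusted p = 0.0938). Without the male it was -1.46 (adjusted p = 0.0279). Slco1b2 gave 10.47, 11.72, 10.65 and 11.65, with a difference of -0.84 (adjusted p = 0.0566), and -1.04 without the male (adjusted p = 0.0156). The livers of this group were spread wide, and its male stood nearest to the controls, or beyond them, for 7 of the 8 members. Abcc2 (8.46, 8.07, 8.68 and 8.90) differed from controls by 0.07 (95% interval -0.36 to 0.50), and Abcb4 (11.49, 11.68, 11.34 and 11.74) by 0.06 (95% interval -0.23 to 0.36).

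**Figure D3:**
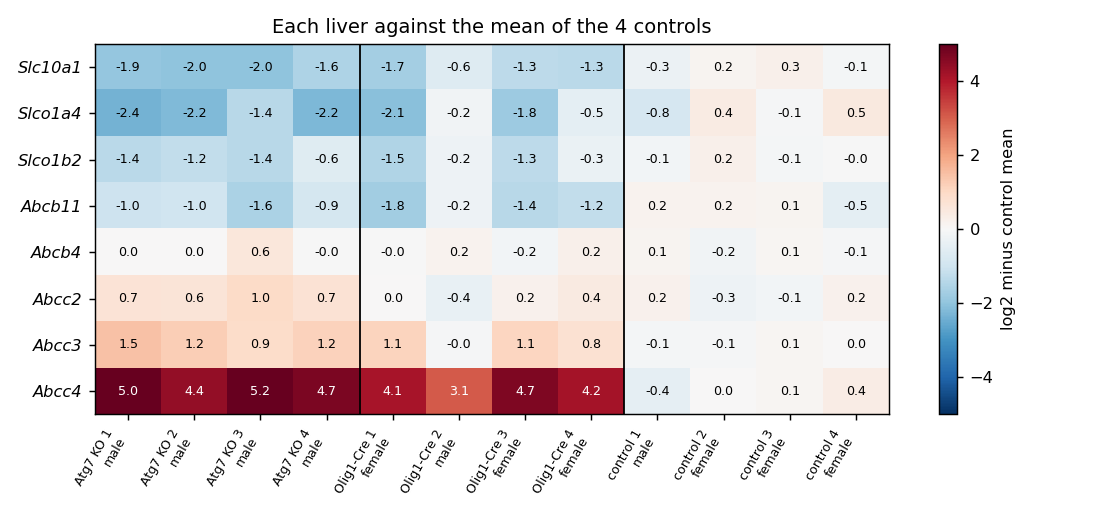
Log2 signal of each liver minus the mean of the 4 controls, for 8 transporters (rows) and 12 livers (columns, with the sex of each), red above and blue below the control mean. The male Olig1-Cre liver, replicate 2, stood at -0.25 for Abcb11, -0.18 for Slco1a4 and -0.24 for Slco1b2, and at 3.07 for Abcc4.

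Set directly against Olig1-Cre livers, Atg7 KO livers had 0 members called in either direction, where 0.0747% of all genes were called higher and 0.084% lower by limma, and 3 of the 8 members had an unadjusted p under 0.05, as had 14.4% of all genes. Abcc2 was higher by 0.67 (SE 0.18, adjusted p = 0.147), and it was the only member whose ranges were apart, against 8.63% of all genes. Slc10a1 differed by -0.63 (95% interval -1.11 to -0.15, adjusted p = 0.235) and Abcc4 by 0.82 (95% interval 0.13 to 1.51, adjusted p = 0.273). Abcb11 differed by 0.04 (95% interval -0.61 to 0.70). With sex as a covariate, which sets the 4 Atg7 KO males against the male Olig1-Cre liver, Abcc2 (1.13, adjusted p = 0.0389), Abcc3 (1.24, adjusted p = 0.0362), Abcc4 (1.76, adjusted p = 0.0329) and Slc10a1 (-1.24, adjusted p = 0.0400) were called, and these values rest on that 1 liver. Fitted on the males alone, the same 4 differences were not called (adjusted p = 0.0752 to 0.0831). When each Cre group was set against the controls of its own line, 0 members were called in the difference of the effects (0% of all genes in either direction, limma), and 1 of 8 had an unadjusted p under 0.05, as had 7.1% of all genes. This was Abcc4, with 1.18 (adjusted p = 0.698).

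Since sex was uneven between groups, the sexes were compared among the Olig1-Cre and control livers with group as a covariate. No member was called between 2 males and 6 females (0 higher and 0 lower, with 0.215% of all genes in each direction, limma), and 3 of 8 had an unadjusted p under 0.05, as had 15.5% of all genes. These were Abcb11 with 0.73 (adjusted p = 0.245), Abcc3 with -0.57 (adjusted p = 0.244) and Abcc4 with -0.92 (adjusted p = 0.109), male minus female. In that comparison the directions of Slc10a1, Slco1a4, Slco1b2 and Abcb4 turned when arrays were scaled to 1 median. Of the female-biased liver genes, 3 of 4 measured were lower in Atg7 KO livers than in controls (Cyp2b13 -5.99, A1bg -4.58, Cux2 -1.30), against 15.3% of all genes. Of 4 male-biased genes measured, 0 were higher and 1 was lower in the all-male Atg7 KO group (Hsd3b5 -4.13, adjusted p = 0.00538). Of those not called, Cyp7b1 was at -1.20 (adjusted p = 0.203), Cyp4a12a at 3.98 (adjusted p = 0.0819) and Cyp2d9 at 1.52 (adjusted p = 0.171). Cyp2b13 was detected on 6 of the 12 arrays, A1bg on 8, Cux2 on 9 and Hsd3b5 on 5, where the filter asked for 4. Such genes can pass the filter through the livers where they are high, so the counts of sex-biased genes depend on the filter. The part of sex in the members' values was not tested beyond the fits with sex. With sex as a covariate, Slc10a1 was -1.58, Slco1a4 -1.20, Slco1b2 -1.01, Abcb11 -1.29, Abcc3 1.27 and Abcc4 5.27 in Atg7 KO livers, all called. This fit sets the Atg7 KO livers against 1 control liver, replicate 1, and takes the spread also from the females. That array had the fewest probes detected and the lowest median raw signal (79.8). Before normalization its signals of Slc10a1, Slco1a4, Abcb11 and both kept Slco1b2 probes lay below those of every Atg7 KO liver. For Abcb11 the raw signal was 861.3, against 902.9 to 1341.9 in Atg7 KO livers, so these falls against the male control appear only after normalization. Fitted on the males alone, with the same differences, Slco1a4 (adjusted p = 0.0854) and Slco1b2 (adjusted p = 0.0849) were not called.

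**Figure D4:**
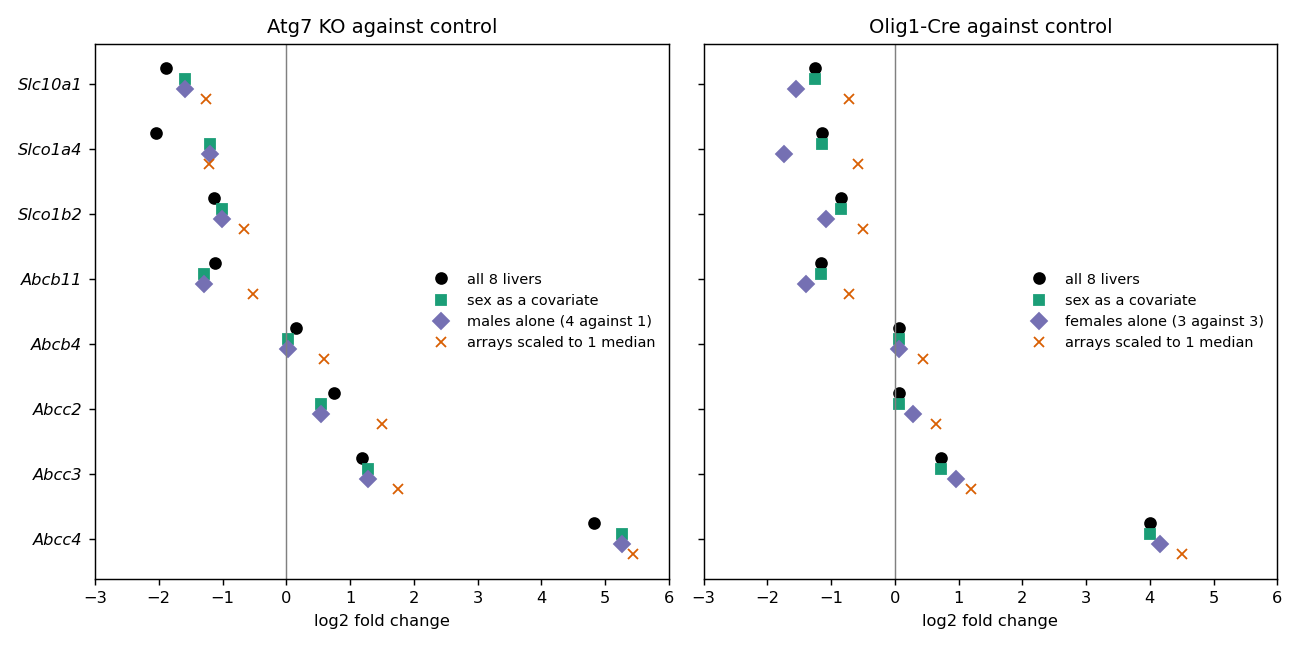
Log2 fold changes of 8 transporters in Atg7 KO livers (left) and Olig1-Cre livers (right) against controls, over all 8 livers, with sex as a covariate, within 1 sex, and with each array scaled to 1 median. Abcc4 stayed between 4.82 and 5.43 on the left under these settings, while scaling to 1 median moved every member upward.

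Other carriers of the same membranes were counted from lists of related genes. The shares of all genes called higher and lower were 19.5% and 15.3% in Atg7 KO livers and 12.8% and 8.47% in Olig1-Cre livers. Of 12 other uptake carriers measured, 2 were higher and 7 lower in Atg7 KO livers than in controls, with a median of -0.89 against -0.01 over all genes. Slc22a7, an organic anion carrier, changed by -1.73, the nucleoside carrier Slc29a1 by -1.68 and Slc22a30 by -1.56. In Olig1-Cre livers 1 was higher and 9 were lower (median -0.70, against -0.00018 over all genes), with Slc22a30 at -1.55, Slc29a1 at -1.42 and Slc22a7 at -1.38. Of 7 other canalicular transporters, 1 was higher and 3 lower in Atg7 KO livers. In this list, as among the other uptake carriers, the share called higher was below that of all genes. The cation exporter Slc47a1 changed by -1.21 and the sterol exporter subunit Abcg8 by -1.16, and Tmem30a, a subunit of phospholipid flippases, by -0.79. Only Slc47a1 was called in Olig1-Cre livers (-0.77). Of 4 other basolateral exporters, 2 were higher and 2 lower in Atg7 KO livers, among them Slc51b (2.14, SE 0.29, adjusted p = 0.000322), a subunit of the bile acid exporter Ost, Abcc5 (1.23) and Abcc6 (-1.21). The probe of its partner Slc51a was detected on 0 of 12 arrays. In Olig1-Cre livers Abcc5 (0.77) was higher, Abcc6 (-1.19) and Abcc10 (-0.57) were lower, and Slc51b was at 1.23 (adjusted p = 0.0695).

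Regulators of transporter genes were measured on the same arrays. Of 10, 0 were higher and 7 lower in Atg7 KO livers (median -0.77), led by the xenobiotic receptor Nr1i3 (-2.02), the growth hormone receptor Ghr (-2.01) and the fatty acid receptor Ppara (-1.24). In Olig1-Cre livers 0 were higher and 4 lower (median -0.41), with Ghr at -1.30, Nr1i3 at -1.06 and Ppara at -0.93. Of 9 Nrf2 target genes, 7 were higher and 0 lower in Atg7 KO livers (median 1.21), led by Srxn1 (4.80), Gclc (2.14) and Nqo1 (1.97). In Olig1-Cre livers 7 were higher and 1 lower (median 1.18), with Srxn1 at 4.07, Nqo1 at 1.86 and Gclc at 1.59. Of 8 scaffold and trafficking proteins, which tether or deliver carriers to the membrane, 1 was higher and 2 lower in each Cre group, where 19.5% and 15.3% of all genes were higher and lower in Atg7 KO livers and 12.8% and 8.47% in Olig1-Cre livers. In Atg7 KO livers these were Msn (0.85), Pdzk1 (-0.70) and Rdx (-0.62), and in Olig1-Cre livers Rdx (-0.72), Pdzk1 (-0.39) and Msn (0.35).

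Markers of cell types moved beside these transporters. Against controls, 19.5% of all genes were called higher and 15.3% lower in Atg7 KO livers, and 12.8% and 8.47% in Olig1-Cre livers. Of 10 hepatocyte markers measured, 0 were higher and 8 lower in Atg7 KO livers and 0 higher and 3 lower in Olig1-Cre livers against controls. Their summed signal was 57647 to 63805 in Atg7 KO livers, 62429 to 81724 in Olig1-Cre livers and 79789 to 91526 in controls. In Atg7 KO livers 3 of 4 cholangiocyte markers, 5 of 7 macrophage and neutrophil markers and 5 of 8 stellate cell markers were higher and 0 lower, with summed signals of 221 to 393, 1791 to 2594 and 851 to 1242, against 39.1 to 97.1, 831 to 1303 and 415 to 814 in controls. In Olig1-Cre livers 1, 4 and 1 of these markers were higher and 0 lower, with sums of 95.7 to 175.3, 1550 to 2854 and 591 to 1078. There the 1 of 8 stellate cell markers was near the share of all genes called higher. The cholangiocyte markers Epcam and Slc10a2 were detected on 0 arrays, Cftr on 4, Krt19 on 5, Krt7 on 6 and Sox9 on 12, where the filter asked for 4. Markers on few arrays can pass the filter through the livers where they are high, so the cholangiocyte count depends on the filter. The part of these cells in the transporters' values was not tested, and in whole liver fewer cells of a type and less RNA per cell cannot be told apart.

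Over the 12 livers, most members varied together, given here as a description, since the livers differ in group, sex and chip and the members were measured on the same arrays. Slc10a1 correlated with Slco1a4, Slco1b2 and Abcb11 at Pearson's r of 0.865, 0.885 and 0.862 and with Abcc3 and Abcc4 at -0.916 and -0.938. Abcb4 stayed between -0.299 and 0.412 with every other member. The genes most like each member were Hal and Ghr for Slc10a1 (r = 0.982 and 0.979), Acss2 and Slc25a13 for Slco1a4 (0.958 and 0.948), Pcmtd1 and Abcd3 for Slco1b2 (0.971 and 0.965) and Cps1 and Cmah for Abcb11 (0.960 and 0.960). For the others they were Mgrn1 and Nrd1 for Abcb4 (0.861 and 0.855), Slx4 and Wnt4 for Abcc2 (0.923 and 0.908), Bicc1 and Epb41l1 for Abcc3 (0.978 and 0.976) and Cyth4 and Osbpl3 for Abcc4 (0.994 and 0.992).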

How the data were processed

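For each probe the authors deposited an intensity (average bead signal, not normalized) with a detection p-value, and in a further deposited table a log2 value. GenomeStudio and limma 3.22.1 are named in the submitters' processing notes, and the methods name a cubic spline and the median of a gene's probes. The values here were computed from the deposited intensities with neqc of limma 3.58.1 in R 4.3.3 (normexp background from the detection p-values, offset 16, quantiles over 12 arrays), and lay within 0.00870 of the deposited log2 values for the member probes. Probes detected at p under 0.05 on at least 4 of 12 arrays were kept (19528 of 45281), and the median of a gene's probes was used. Symbols came from the platform annotation, which gives 34885 probes 1 symbol, 18 several and leaves 10378 unnamed. Promoters came from RefSeq (GRCm38.p6).

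Pairs of groups were fitted with limma's lmFit and eBayes on their 8 arrays, two-sided, with Benjamini-Hochberg adjustment over 10711 genes, after tests on simulated data. Arrays give no count of molecules, so their number limits the precision. The labels do not say which livers share a litter, so p-values cover only the spread among the livers on the arrays. The members and gene lists were chosen with earlier results of these data known. All 9 members are named, up to 3 called genes of each pathway list with the largest change in a comparison, and the 2 genes most like each member. The sex-biased genes and markers named apart from that were chosen after their values were seen. Alternatives changed the normalization, filter, probe summary, chip, sex, control line and the livers left out.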

Additional observations from a re-analysis of the deposited data

Results flagged for a closer look

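In 24 groups of 4 livers (8 members in 3 groups), 2 held a liver far from the others by Dixon's criterion, which chance passes in about 1 in 20 groups. For Abcb11, control replicate 4 was the lowest control, at 10.3 on the log2 scale, while the other controls lay at 10.95 to 10.99. For Abcb4, Atg7 KO replicate 3 was the highest of its group, at 12.06, while the other Atg7 KO livers lay at 11.50 to 11.53. Without that liver, Abcb4 in Atg7 KO livers differed from controls by 0.01.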

How the results depend on the processing

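Of the 186 member values of Atg7 KO against control under the alternatives, 175 kept direction and call, 11 lost the call and 0 turned. For Olig1-Cre against control 156 of 186 kept both, 12 lost the call, 14 gained it and 4 turned. Leaving out any 1 liver kept 3 members higher and 4 lower in Atg7 KO livers against controls, with 2989 to 3633 genes called in all. Abcc4 was called in both comparisons with controls under every alternative run, at 3.75 to 5.43 in Atg7 KO livers and 2.98 to 4.50 in Olig1-Cre livers. No paired analysis was possible because the labels carry no replicate numbers that tie livers of different groups. The cause of the changes below was not tested, except that fits within a chip or sex use fewer livers. Males against females could not be fitted within chip 2, which holds only females of these groups.

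In Atg7 KO livers against controls, members called lower numbered 1 with arrays scaled to 1 median and 2 within chip 2 and among males alone. Genes called numbered 1872 within chip 1, 1597 within chip 2, 2165 with sex as a covariate and 1469 among males alone, against 3732.

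In Olig1-Cre livers against controls, members called higher numbered 2 with the deposited values, with probes detected on all arrays of a group, within chip 2, with sex as a covariate, among females alone and with all 12 arrays in 1 fit (Abcc4 and Abcc3 each time). Members called lower numbered 0 with arrays scaled to 1 median and within chip 1, 1 without a filter and with controls of the own line, and 4 among females. Slco1b2 also gained the call with sex as a covariate and with all 12 arrays in 1 fit. Genes called numbered 1344 without a filter, 16 within chip 1, 1232 within chip 2 and 732 with controls of the own line, against 2273. Leaving out 1 liver gave 1 to 2 members higher, 1 to 4 lower and 1088 to 3144 genes. Abcc2 turned to -0.029 for 1 of its probes and to -0.15 within chip 1, and ranged from -0.052 to 0.22 with 1 liver left out.

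For Atg7 KO against Olig1-Cre, 17 genes were called. The number was 6 with the cubic spline and with quantiles alone, 38 with arrays scaled to 1 median, 32 with probes detected on all arrays of a group, 4 without a filter, 33 with the brightest probe, 10 with single probes, 8 with chip as a block, 0 within chip 1, 3 within chip 2, 65 among males alone, 52 with all 12 arrays, and 3 to 29 with 1 liver left out. With sex as a covariate 201 genes were called, 3 members higher and 1 lower. Abcb11 was -0.86 and Abcb4 -0.028 with sex as a covariate and among males alone, and -0.00011 and -0.065 within chip 1. With 1 liver left out they ranged from -0.16 to 0.34 and from -0.050 to 0.14.

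For males against females, 46 genes were called. The number was 27 with the cubic spline, 25 with quantiles alone, 3999 with arrays scaled to 1 median (3 members lower), 18 without a filter, 10 with chip as a block, 4 within chip 1, and 29 to 113 with 1 liver left out. With arrays scaled to 1 median, where the median of all genes was -0.49, Slc10a1 was -0.32, Slco1a4 -0.64, Slco1b2 -0.32 and Abcb4 -0.50. Slco1a4 was -0.011 with the cubic spline and -0.014 with quantiles alone, and Abcc2 0.043 within chip 1 and with chip as a block. With 1 liver left out, Slc10a1 ranged from -0.40 to 0.81, Slco1a4 from -1.13 to 1.28, Slco1b2 from -0.17 to 0.80 and Abcc2 from -0.60 to 0.26.

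For the Alb-Cre effect against the Olig1-Cre effect, 0 genes were called, 2 with sex as a covariate and 0 to 9 with 1 liver left out. With arrays scaled to 1 median Slco1b2 was 0.48, Abcb11 0.37 and Abcb4 0.42. Slco1a4 was -0.014 without a filter and -0.10 with sex as a covariate, and Slco1b2 0.042 without a filter and for 1 of its probes. With 1 liver left out, Slco1a4 ranged from -0.37 to 0.40, Slco1b2 from -0.30 to 0.12 and Abcb11 from -0.62 to 0.053. Slc10a1 was dim, and its differences rest on signals near background. Abcc4 was near background in controls (raw signals of 86.4 to 135.3), so the size of its change in both Cre groups depended on the background correction.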
